A study of Mus musculus with 18 samples.

Results

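Genes of phagocyte activation and of the lysosome were followed in mouse cerebellar granule neuron progenitors (GNPs) and in medulloblastomas. The set held 9 listed genes, namely Gpnmb, Lyz1, Lyz2, Lgals3, Cd68, Spp1, Ctsd, Cd83 and Tlr2, and each was read at its probe with the highest mean over all 18 arrays. In the probe annotation 7 of the 9 had a probe, of 19057 genes with a probe in all. Cd68, a membrane protein of phagocyte lysosomes, and Spp1, the secreted phosphoprotein osteopontin, were matched to no probe and were not analysed here. The list was drawn up with the differences between mutant and wild-type GNPs already known, and it was meant to set these against the tumours. Differences of its members in those comparisons are therefore given as a description, without p-values. Limma calls named for them, kept or lost under other settings, describe the same values. They are no test of the fall and no support for it.

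Phagocytes such as microglia take up dead cells and debris and digest them in lysosomes. On activation they raise surface receptors, lysosomal hydrolases, lysozyme and lipid-handling proteins, and microglia of the young cerebellum are known to be active in this way. The Shh-type medulloblastomas of Ptch+/- mice arise from GNPs and are known to hold resident macrophages and microglia.

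Illumina MouseWG-6 v2 arrays were used, and values are log2 expression after normalization by the authors. GNPs came from postnatal day 6 (P6) cerebella and were purified on a percoll gradient and by pre-plating, with 4 arrays for each of 4 genotypes. Wild-type (WT) and Ptch+/- GNPs, heterozygous for a Ptch1 mutation, were labelled C57Bl/6. NdpKO GNPs were labelled as of mixed background, and lack the X-linked gene of the secreted ligand Norrin through a lacZ cassette in the locus. NdpKO;Ptch+/- GNPs carried both alleles, and for 3 of their 4 arrays no strain was labelled. The authors state that controls came from the same breeding cohort, yet by label WT and NdpKO GNPs differed in strain. They also state that NdpKO and NdpKO;Ptch+/- mice were males, while other controls included both sexes. Strain label and sex thus cannot be told apart from loss of Norrin in these GNPs. The tumours were 1 Ptch+/- (C57Bl/6) and 1 NdpKO;Ptch+/- medulloblastoma (MB). They were dissected from symptomatic mice and not purified in the way of the GNPs, so tissue, age and preparation cannot be told apart between them.

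Level 5 is used here as a limit near background, and 23.0% to 23.9% of an array's probes reached it. Where every array of the dimmer group lay below that level, a fold is given as a lower bound against it. Ptch1 averaged 8.63 in WT, 8.80 in NdpKO, 7.83 in Ptch+/- and 8.06 in NdpKO;Ptch+/- GNPs, and limma called it lower than WT in Ptch+/- (adjusted p = 0.00402) and not in NdpKO;Ptch+/- GNPs (adjusted p = 0.0835). It read 8.69 in the Ptch+/- and 7.01 in the NdpKO;Ptch+/- tumour. The Ndp probe lay near background on all 18 arrays, so it did not check the knockout. Of 12 granule neuron lineage markers 7 had a mean at or above level 5, while Atoh1, Pax6, Tubb3, Nhlh1 and Nhlh2 lay below it on every array. The title of NdpKO;Ptch+/- replicate 2 disagreed with its source and genotype labels, which read Ndp knockout, and it was grouped by its title. All 4 arrays titled NdpKO;Ptch+/-, this one included, read 7.80 to 8.23 for Ptch1, below the 8.65 to 8.97 of the NdpKO arrays. On the first principal component of the GNPs, with 43.6% of the variance, the WT arrays scored -23.1 to -14.4 and the Ptch+/- arrays 12.6 to 17.7. NdpKO;Ptch+/- replicates 2, 3 and 4 (-18.0, -8.41 and -19.7) lay on the WT side and replicate 1 (16.6) on the other, and NdpKO replicate 4 (-15.2) lay apart from its group among the WT arrays.

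The promoters of Gpnmb and Tlr2 are shown because both genes lay below the WT arrays in all mutant GNPs and then parted in the tumours. RefSeq windows (GRCm38.p6), from 250 bases before to 50 after the transcription start, were found for 8 of the 9 genes, and 2 for Spp1. On both strands they were searched for the E-box CACGTG of the lysosomal gene regulators TFEB and MITF, the AP-1 element TGACTCA, the PU.1 core GAGGAA and the NF-kB consensus. The Gpnmb window (chr6:49036268-49036537, plus strand) and the Tlr2 window (chr3:83841589-83841858, minus strand) are printed to 20 bases after the start, with AP-1 in capitals for Gpnmb and NF-kB matches in capitals for Tlr2.
Gpnmb: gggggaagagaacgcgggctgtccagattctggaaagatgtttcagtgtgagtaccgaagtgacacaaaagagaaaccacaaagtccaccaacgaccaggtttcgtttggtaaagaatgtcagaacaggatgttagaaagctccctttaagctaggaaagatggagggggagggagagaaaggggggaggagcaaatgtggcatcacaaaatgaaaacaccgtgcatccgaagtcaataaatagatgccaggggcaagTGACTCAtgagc
Tlr2: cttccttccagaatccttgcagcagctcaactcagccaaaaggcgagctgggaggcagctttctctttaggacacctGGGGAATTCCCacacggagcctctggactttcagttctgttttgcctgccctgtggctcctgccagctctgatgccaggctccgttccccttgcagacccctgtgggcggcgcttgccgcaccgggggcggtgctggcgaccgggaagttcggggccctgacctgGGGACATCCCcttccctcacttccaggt
AP-1 was found in 5.2% of 32851 mouse promoter windows and NF-kB in 4.51%. Tlr2 had 3 NF-kB matches, of which 2 overlapped in its upper stretch of capitals. The E-box, held by 7.15% of all windows, was found in Ctsd alone among these genes, and no motif was found in Lyz1, Lyz2 or Lgals3. These matches describe letters in a window and not binding.

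The lysozyme genes are shown beside each other because their likeness limits what can be said of either. Lyz1 and Lyz2 lie 5522 bases apart on chromosome 10. Their 100 bases before the start (minus strand, chr10:117292869-117292968 for Lyz1 and chr10:117282273-117282372 for Lyz2) had the same base at 92 positions. Capitals mark the longest run that they share, of 50 bases.
Lyz1: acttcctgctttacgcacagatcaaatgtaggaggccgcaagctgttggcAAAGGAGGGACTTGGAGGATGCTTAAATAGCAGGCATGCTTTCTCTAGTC
Lyz2: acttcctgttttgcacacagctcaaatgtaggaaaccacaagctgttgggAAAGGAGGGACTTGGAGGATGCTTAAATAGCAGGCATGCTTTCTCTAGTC
Transcript and probe sequences were not compared here. A probe named for either may read both, which was not checked, and their signal is given under the name of the probe with that limit.

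Cd83, Tlr2, Gpnmb and Lgals3 lay below every WT array in GNPs of all 3 mutant genotypes, which is the difference for which they were listed, while Lyz1 overlapped with WT in each. In the tumours Gpnmb and the lysozymes lay far above all GNPs, whereas Cd83 lay at background. The mutant comparisons share the WT arrays, so they are not independent of each other.

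**Figure D1:**
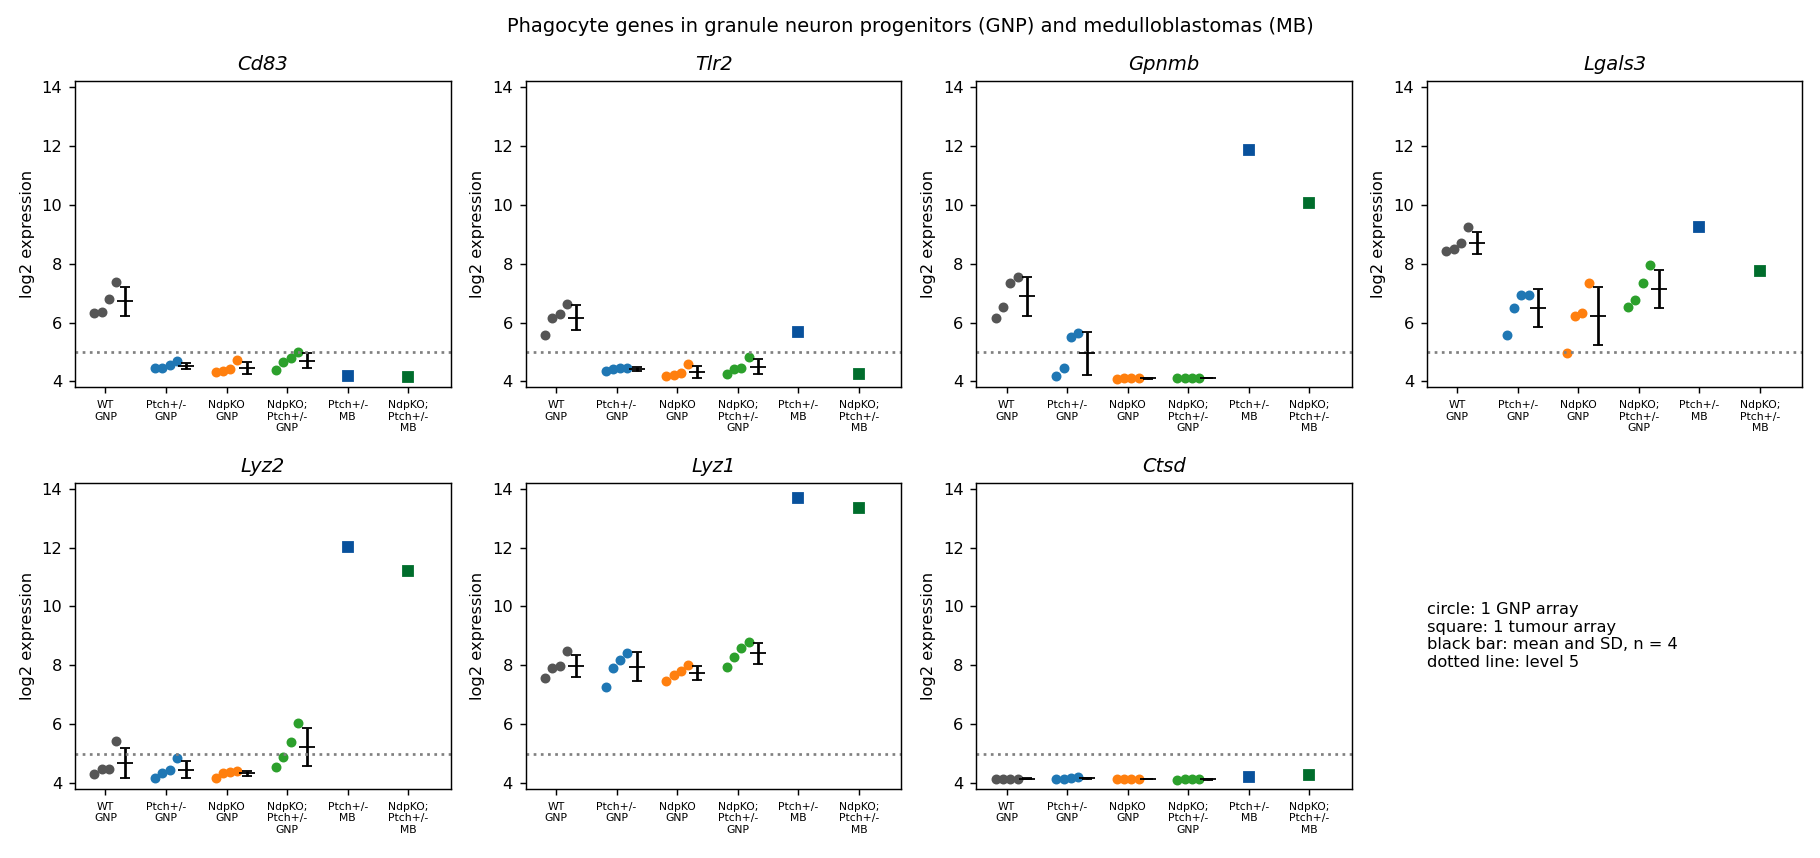
Log2 expression of the 7 genes with a probe on each array, for 4 GNP genotypes and 2 tumours, with mean and SD of the 4 GNP arrays; the dotted line is level 5. Cd83 and Tlr2 lie above 5 on the 4 WT arrays and near background in most mutant GNPs, and the tumours reach 13.68 for Lyz1, 12.01 for Lyz2 and 11.85 for Gpnmb.

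Cd83, a surface glycoprotein known from mature dendritic cells and also made by microglia, read 6.33, 6.37, 6.80 and 7.38 in WT GNPs. Ptch+/- GNPs read 4.45, 4.47, 4.56 and 4.68, and NdpKO GNPs 4.33, 4.35, 4.42 and 4.74. NdpKO;Ptch+/- GNPs read 4.39, 4.66, 4.79 and 5.01. All WT arrays thus lay above every mutant array, and 1 mutant array reached level 5. Against WT the log2 differences were -2.18 for Ptch+/-, -2.26 for NdpKO and -2.01 for the compound mutant, each ± 0.20 (SE). Cd83 was at least 3.29-fold lower in Ptch+/- and in NdpKO GNPs and 4.02-fold lower in the compound mutant, or 3.29-fold with arrays below level 5 raised to it.

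Tlr2, the receptor for bacterial lipoproteins that signals through Myd88 to NF-kB, read 5.59, 6.15, 6.28 and 6.62 in WT GNPs. Ptch+/- GNPs read 4.35, 4.41, 4.46 and 4.47, and NdpKO GNPs 4.19, 4.22, 4.27 and 4.61. NdpKO;Ptch+/- GNPs read 4.25, 4.43, 4.47 and 4.84. Every WT array was above level 5 and every mutant array below it. The differences from WT were -1.74, -1.84 and -1.66 in that order, each ± 0.18 (SE), and Tlr2 was at least 2.23-fold lower in each mutant.

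Gpnmb, a membrane glycoprotein of phagocytes and their endosomes, read 6.17, 6.52, 7.35 and 7.56 in WT GNPs. Ptch+/- GNPs were spread, at 4.18, 4.47, 5.51 and 5.65, with 2 of 4 arrays above level 5. All arrays of NdpKO GNPs (4.10 to 4.13) and of NdpKO;Ptch+/- GNPs (4.11 to 4.12) lay at background, and so below each Ptch+/- array, although 2 of those were under level 5 as well. Gpnmb differed from WT by -1.95 ± 0.34 (SE) in Ptch+/- GNPs, which is 3.85-fold, or 3.05-fold with the dim arrays raised to level 5. Its call there was lost without WT replicate 1, Ptch+/- replicate 1 or Ptch+/- replicate 3 (-1.73, -1.69 and -1.78), and with replicate number as a block. In both genotypes without Norrin it was at least 3.73-fold lower than in WT, with differences of -2.79 ± 0.34 and -2.78 ± 0.34, and the block also ended the call in NdpKO;Ptch+/- GNPs. The values come from 1 of 4 Gpnmb probes. The other 3 lay at background in all GNPs, so no second probe checked this fall.

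Lgals3, the galectin that binds damaged lysosomes and the glycans of engulfed material, stayed measurable in nearly all GNPs. WT arrays read 8.42, 8.50, 8.69 and 9.23, against 5.59, 6.50, 6.93 and 6.95 in Ptch+/- GNPs. NdpKO GNPs read 4.95, 6.23, 6.32 and 7.35, and NdpKO;Ptch+/- GNPs 6.52, 6.76, 7.35 and 7.94. No mutant array reached the WT range, yet the mutants overlapped widely with each other. Lgals3 was 4.64-fold lower than WT in Ptch+/- (-2.22 ± 0.48, SE), 5.64-fold lower in NdpKO (-2.50 ± 0.48) and 2.96-fold lower in NdpKO;Ptch+/- GNPs (-1.57 ± 0.48). Only the difference in Ptch+/- GNPs passed the limma test, and there the call was lost on leaving out any of 12 of the 16 arrays.

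Lysozymes cut bacterial cell walls and are packed in phagocyte granules and lysosomes. The Lyz1 probe averaged 7.98 ± 0.38 (SD, n = 4) in WT, 7.95 ± 0.49 in Ptch+/-, 7.74 ± 0.22 in NdpKO and 8.41 ± 0.36 in compound mutant GNPs, and all mutant ranges overlapped with that of WT. The Lyz2 probe lay below level 5 on 13 of 16 GNP arrays, 3 of 4 WT arrays among them, so a fall could not have been read, and the remaining arrays were 1 of WT (5.45) and 2 of NdpKO;Ptch+/- GNPs (5.41 and 6.04). Neither passed the limma test in a mutant, with differences from WT between -0.35 and 0.54. Ctsd, the aspartic protease of the lysosome, read 4.12 to 4.20 on all GNP arrays at its only probe, so no level could be given.

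Counted over the set, 4 of 7 genes were called lower and 0 higher in Ptch+/- GNPs, where 0.499% of all 45281 probes were called lower. In NdpKO GNPs 3 of 7 were called lower (0.155% of all probes), and in NdpKO;Ptch+/- GNPs 3 of 7 (0.0331%). The median difference of the 7 genes was -1.74, -1.84 and -1.57 in that order, against 6.6e-05, 3.3e-04 and 1.1e-04 over all genes. In each mutant Cd83, Tlr2, Gpnmb and Lgals3, 4 of 7, did not overlap with WT, as did 4.48% of all probes for Ptch+/-, 2.57% for NdpKO and 1.8% for the compound mutant. Since these comparisons chose the genes, nothing is read from the counts.

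Loss of Norrin on a Ptch+/- background was asked for by NdpKO;Ptch+/- against Ptch+/- GNPs, and there 0 of 7 genes were called by limma (0.0155% of all probes), with 3 at an unadjusted p under 0.05 (8.67% of all probes). These were Gpnmb (-0.84 ± 0.34, adjusted p = 0.513), Lyz2 (0.77 ± 0.30, adjusted p = 0.498) and Ctsd, whose values were all at background. In NdpKO;Ptch+/- against NdpKO GNPs 0 of 7 were called by limma (0.00442% of all probes), with Lyz1 (0.67 ± 0.26) and Lyz2 (0.89 ± 0.30) at an unadjusted p under 0.05 (5.6% of all probes) and an adjusted p of 0.873 each. These misses do not show that the genotypes were alike.

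The interaction asked whether the compound mutant differed from the sum of both single changes, and 2 of 7 genes were called higher (0.221% of all probes were). They were Cd83 (2.43 ± 0.29, SE) and Tlr2 (1.91 ± 0.26), and the values for Gpnmb (1.95 ± 0.48) and Lgals3 (3.14 ± 0.67) were not called. This contrast holds the WT arrays for which the genes were listed, and Cd83 and Tlr2 already lay near background in each single mutant, so no further fall could have been read and their values are close to the excess of WT over the mutants. They are a description of that floor and no test of the genotypes. When NdpKO;Ptch+/- replicate 2 was counted by its genotype label instead of its title, neither Cd83 nor Tlr2 was called.

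The tumours turned this picture for some genes and not for others. Gpnmb read 11.85 in the Ptch+/- and 10.07 in the NdpKO;Ptch+/- tumour, above every GNP array. Its difference from the 8 GNP arrays of the same genotypes was 6.42 ± 0.40 (SE), which is 85.8-fold, or 56.2-fold with dim arrays raised to level 5. Against WT GNPs it was 4.06 ± 0.50, or 16.6-fold, so the gene that fell in mutant GNPs lay above WT in both tumours. At another Gpnmb probe, near background in GNPs, the Ptch+/- tumour read 6.24 and the NdpKO;Ptch+/- tumour 4.17.

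**Figure D2:**
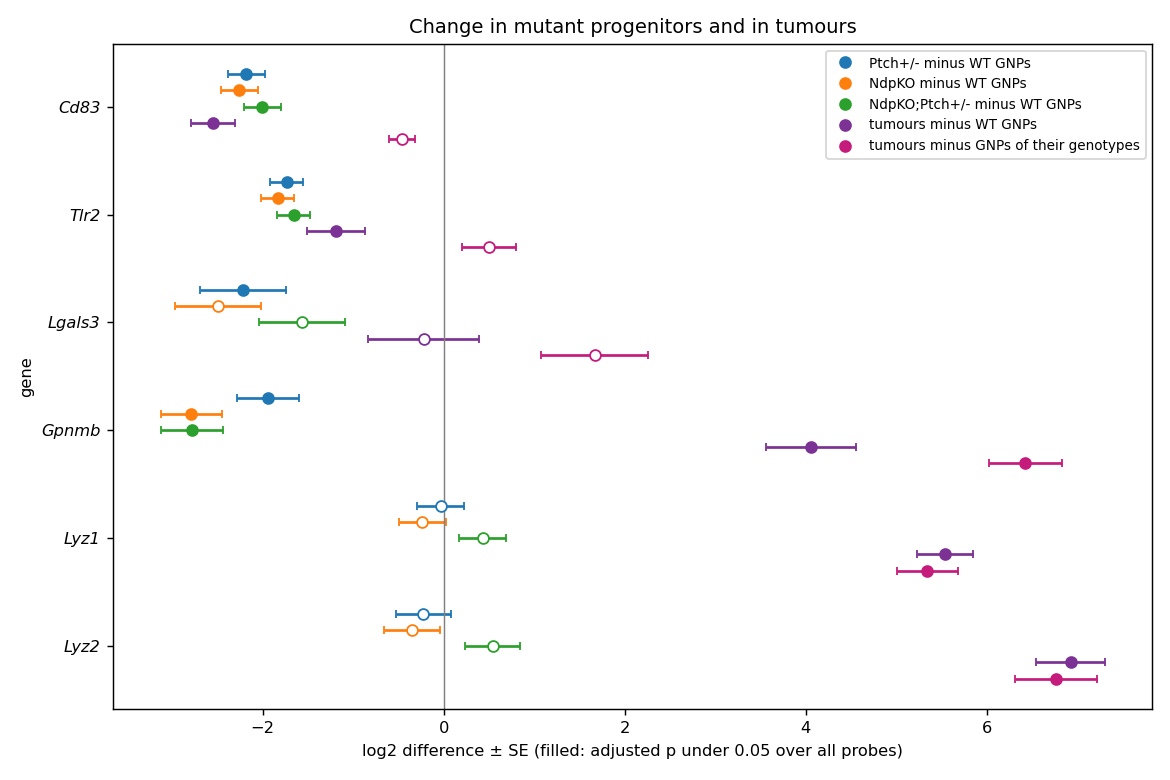
Log2 differences with SE of 6 genes for 3 mutant GNP genotypes against WT, for the 2 tumours against WT and for the tumours against the GNPs of their genotypes; filled points passed the limma test. Gpnmb lies left of 0 in the mutants and right of it in the tumours, and the lysozymes leave 0 in the tumours. Cd83 lies left of 0 in all, but its values are near background both in tumours and in GNPs of their genotypes.

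Both lysozymes lay above every GNP array in the tumours. Lyz1 read 13.68 and 13.36 and Lyz2 12.01 and 11.20 in the Ptch+/- and NdpKO;Ptch+/- tumour. Against GNPs of the same genotypes Lyz1 was 40.5-fold higher (5.34 ± 0.34, SE) and Lyz2 109-fold higher (6.77 ± 0.45), or 86.0-fold with dim arrays raised to level 5. A second Lyz2 probe, at background in GNPs, read 8.98 and 9.30 in the tumours, whereas the other 2 Lyz1 probes lay at background on all arrays. Neither gene had passed the test in a mutant GNP genotype.

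Lgals3 read 9.23 in the Ptch+/- tumour, at the top of the WT range of 8.42 to 9.23. It read 7.74 in the NdpKO;Ptch+/- tumour, below that range and within the 6.52 to 7.94 of NdpKO;Ptch+/- GNPs. In the tumours Lgals3 differed by 1.67 ± 0.59 (SE) from the GNPs of the same genotypes and by -0.22 ± 0.61 from WT, and neither was called. With the Ptch+/- tumour alone the former became 2.74, and with the NdpKO;Ptch+/- tumour alone 0.59.

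Cd83 stayed low, at 4.17 and 4.16, near background as in most mutant GNPs, and was at least 3.29-fold below WT. The tumours parted for Tlr2, which read 5.67 in the Ptch+/- tumour, inside the WT range, and 4.25 in the NdpKO;Ptch+/- tumour, at background. Tlr2 was called lower in tumours than in WT (-1.20 ± 0.32, SE), but with the Ptch+/- tumour alone the difference was -0.49. These WT arrays are those for which Cd83 and Tlr2 were listed, so their place below WT in part restates that choice. Ctsd read 4.20 and 4.27, so its calls lay within background and are not read as a change.

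In tumours against GNPs of the same genotypes 4 of 7 genes were called higher, Ctsd within background among them, and 0 lower, where 8.61% of all probes were called higher and 6.06% lower. Against WT 4 were called higher (9.86% of all probes) and 2 lower (7%). The GNP arrays in both contrasts are those for which the genes were listed. Calls below WT, or above mutant GNPs, thus in part restate that choice. The set was not of one kind in the tumours: its median was 1.67 against GNPs of the same genotypes and 0.08 against WT, and that over all genes was -0.0012 and -9.7e-04. With 1 array each, the difference between the tumours has no replicate check. The NdpKO;Ptch+/- tumour was the lower of both, with log2 differences of -1.78 for Gpnmb, -1.498 for Lgals3, -1.42 for Tlr2, -0.81 for Lyz2 and -0.32 for Lyz1.

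Markers of the cells that could carry these genes were read beside them. These lists were also written with earlier results of these data known, so their p-values are a description and no independent check. Of 24 microglia and macrophage markers 1, 2 and 1 were called lower in Ptch+/-, NdpKO and NdpKO;Ptch+/- GNPs, with a median of -0.09, -0.09 and -0.10, and of -0.93, -1.14 and -0.87 over the 5 markers with a mean at or above level 5. At an unadjusted p under 0.05 stood 11, 13 and 12 of the 24, against 13.2%, 10.9% and 6.95% of all probes, which are also the shares for the other lists at that threshold. Ly86, a partner of a Toll-like receptor homologue on myeloid cells, was called in each (-0.91, -1.01 and -1.03), and Fcrls, a microglial Fc receptor-like gene, in NdpKO GNPs (-2.06 ± 0.38, adjusted p = 0.0469, limma). The summed linear level of the 24 ranged from 1507 to 2732 in WT, 944 to 1643 in Ptch+/-, 783 to 1145 in NdpKO and 934 to 1368 in NdpKO;Ptch+/- GNPs. On all 16 GNP arrays 15 of the 24 lay below level 5, among them Aif1, Cx3cr1, Csf1r, P2ry12, Tmem119 and Ptprc. In bulk RNA, fewer cells of a type and less RNA per cell cannot be told apart, and the part of these markers in the fall of Cd83, Tlr2, Gpnmb and Lgals3 was not tested.

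In the tumours the summed level of the microglial markers was 10738 (Ptch+/-) and 5774 (NdpKO;Ptch+/-), above every GNP array. Against GNPs of the same genotypes 18 of 24 were called higher and 0 lower, 4 of them within background, with a median difference of 2.04. Over all genes, at 1 probe each, 9.36% were called higher and 8.32% lower in this comparison, which are the shares for the other lists too. Trem2, the lipid receptor of microglia, was at least 9.73-fold higher (4.03 ± 0.06, SE), Aif1 at least 7.72-fold and the complement gene C1qc 20.8-fold. The part of these markers in the rise of Gpnmb and the lysozymes was not tested. Of 10 neutrophil markers 8 and of 10 dendritic and antigen presenting cell markers 6 lay below level 5 on all 18 arrays. In the Ptch+/- tumour, where Gpnmb, Lgals3 and Tlr2 were higher than in the other tumour, the neutrophil marker Lcn2 read 9.14 and the antigen presentation genes H2-Ab1, Cd74 and H2-Eb1 read 7.34, 7.11 and 5.57. All 4 lay at background in the NdpKO;Ptch+/- tumour and in GNPs. Other members of these lists did not follow, and in the Ptch+/- tumour S100a8 read 4.24 and S100a9 4.14. Zbtb46 read 5.79 to 8.03 in GNPs, and 4.13 and 4.20 in the Ptch+/- and NdpKO;Ptch+/- tumour. Against GNPs of the same genotypes limma called 0 of the neutrophil markers, and of the dendritic list 0 higher and 1 lower. The part of these genes in the difference between the tumours was not tested.

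**Figure D3:**
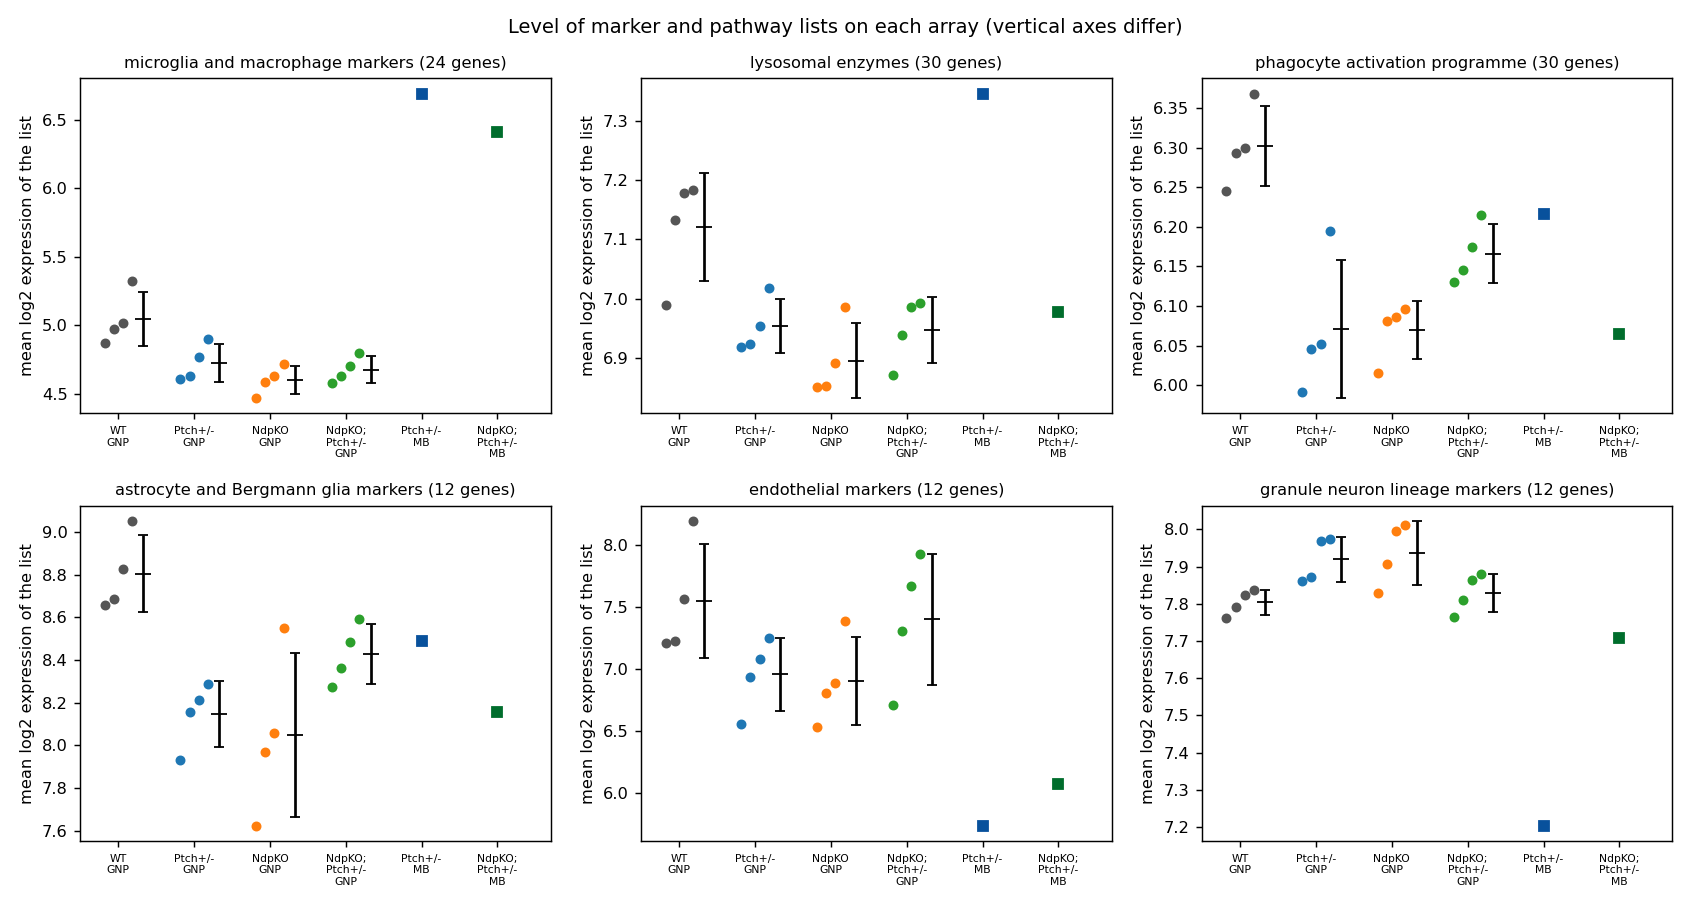
Mean log2 expression of 6 gene lists on each array, with mean and SD of the 4 GNP arrays of a genotype and 1 point for each tumour; vertical axes differ. The microglial list is highest in the tumours, the endothelial list lowest there, and the astrocyte list is lower in Ptch+/- than in WT GNPs.

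Markers of other cell types were read in the same way. Of 12 astrocyte and Bergmann glia markers 1, 1 and 0 were called lower in Ptch+/-, NdpKO and NdpKO;Ptch+/- GNPs, with medians of -0.72, -0.66 and -0.20 and with 9, 9 and 4 at an unadjusted p under 0.05. Of 12 endothelial markers limma called 0 in each, with 2, 4 and 1 at an unadjusted p under 0.05 and medians of -0.66, -0.76 and -0.0031. The summed level of the astrocyte markers was 17207 to 21538 in WT, 10572 to 12957 in Ptch+/-, 10077 to 16170 in NdpKO and 14377 to 18102 in NdpKO;Ptch+/- GNPs. That of the endothelial markers was 7035 to 14983 in WT, 4425 to 6642 in Ptch+/-, 4254 to 8044 in NdpKO and 4928 to 10623 in NdpKO;Ptch+/- GNPs. Their part in the fall of the phagocyte genes was not tested. In the tumours 3 astrocyte markers were called lower and 4 higher than in GNPs of the same genotypes, against 4 and 0 of the endothelial, 6 and 3 of 11 oligodendrocyte, 4 and 0 of 10 fibroblast and 2 and 1 of 12 granule neuron markers. Without the 2 arrays that stand apart on the first principal component, an alternative chosen after seeing the data, 4, 4 and 3 genes of the set were called lower in Ptch+/-, NdpKO and NdpKO;Ptch+/- GNPs.

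Genes of the wider pathways were taken from the same mutant comparisons. Their lists too were written with earlier results known, so the p-values here are a description. Of 25 phagocytic receptors and bridging proteins 1 was called lower in each mutant, the hyaluronan and osteopontin receptor Cd44. It read 5.50 to 5.96 in WT and 4.35 to 4.87 on all mutant arrays, and was at least 1.69-fold lower, with differences of -1.33 ± 0.10 (SE, adjusted p = 1.1e-04, limma), -1.31 ± 0.10 (adjusted p = 2.0e-04) and -1.12 ± 0.10 (adjusted p = 5.9e-04). Like Gpnmb and unlike Cd83, Cd44 was called higher in the tumours than in the GNPs of their genotypes (0.86 ± 0.20, adjusted p = 0.0242, limma). It read 5.78 and 5.003 there, inside and below its WT range, whereas Gpnmb lay above WT in both tumours.

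In mutant GNPs single lysosomal genes were called. Of 30 lysosomal enzymes 1, 1 and 0 were called lower in Ptch+/-, NdpKO and NdpKO;Ptch+/- GNPs, with medians of -0.02, -0.03 and -0.03 and with 11, 8 and 6 at an unadjusted p under 0.05. The gene was Man2b1, the lysosomal alpha-mannosidase (-0.44 ± 0.08 in Ptch+/- and in NdpKO GNPs, adjusted p = 0.0249 and 0.0446, limma). Of 29 lysosomal membrane proteins and cofactors 1, 1 and 0 were called lower, with 7, 5 and 4 at an unadjusted p under 0.05. The called gene was Slc11a1, the metal transporter of the phagosome, at -0.65 ± 0.10 (adjusted p = 0.0153) and -0.61 ± 0.10 (adjusted p = 0.0325). Of 25 genes of the Toll-like receptor pathway limma called 0 in these 3 comparisons, with 6, 4 and 7 at an unadjusted p under 0.05, and 16 lay below level 5 on all 18 arrays, among them Tlr1 and Tlr6, the known partners of Tlr2. Of 30 genes of the phagocyte activation programme the lipase gene Lpl (-0.50 ± 0.10, adjusted p = 0.0358) and Vim, an intermediate filament gene (-0.52 ± 0.09, adjusted p = 0.0227), were called lower in Ptch+/- GNPs. In NdpKO and NdpKO;Ptch+/- GNPs limma called 0 of these, with 10 and 7 at an unadjusted p under 0.05.

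The tumours carried changes of lysosomal genes in both directions. Of the 30 enzymes 10 were called higher, 2 of them within background, and 4 lower than in GNPs of the same genotypes, and the median was 0.18. Lipa, the acid lipase, rose 3.27-fold (1.71 ± 0.37, SE), Man2b1 2.47-fold (1.31 ± 0.09) and the cathepsin gene Ctsz 2.26-fold (1.18 ± 0.25). Ctsa, the protective protein of the lysosomal sialidase, fell 3.67-fold (-1.87 ± 0.38), and the sialidase gene Neu1 itself 2.46-fold (-1.30 ± 0.14). Of the 29 membrane proteins and cofactors 4 were called higher, among them Laptm5 (4.25-fold) and the progranulin gene Grn (2.35-fold), and 5 lower, among them the mannose 6-phosphate receptor gene Igf2r (3.85-fold). Over all genes, at 1 probe each, 9.36% were called higher and 8.32% lower. These shares also stand beside the receptor, activation and Toll-like receptor lists below.

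**Figure D4:**
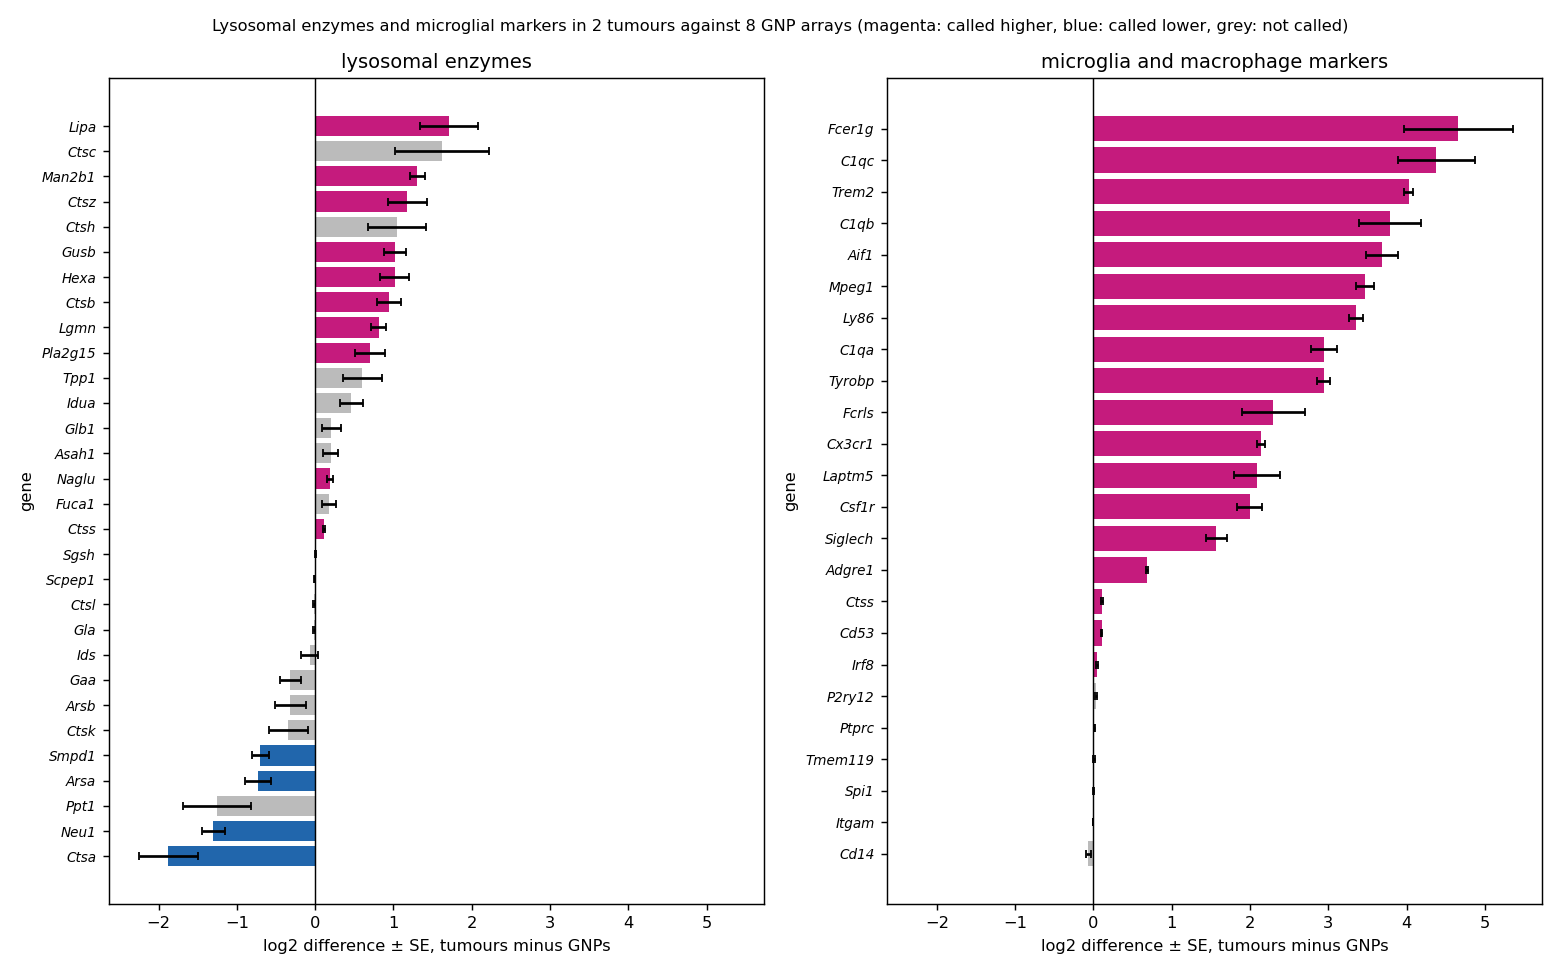
Log2 differences with SE between the 2 tumours and the 8 GNP arrays of their genotypes for lysosomal enzymes (left) and microglial markers (right); magenta bars were called higher, blue bars lower, and grey bars were not called. Enzymes run from -1.87 for Ctsa to 1.71 for Lipa, while 18 of 24 microglial markers were called higher.

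Of the phagocytic receptors 9 were called higher in the tumours, 2 within background, and 2 lower, with a median of 0.04. Over the 6 with a mean at or above level 5 the median was -0.42. The summed level of the list was 8748 (Ptch+/-) and 11310 (NdpKO;Ptch+/-) in the tumours, below every GNP array. Among the called genes were Trem2, its adaptor Tyrobp (at least 4.25-fold higher), the integrin gene Itgav (at least 2.33-fold) and the bridging protein gene Mfge8, which fell 3.13-fold. In the activation programme 6 were called higher, 1 within background, and 2 lower, with a median of -0.0012, and of -0.21 over the 12 with a mean at or above level 5. Igf1 was at least 3.97-fold and the apolipoprotein gene Apoe, which is not particular to phagocytes, 5.42-fold higher. The chemokine gene Ccl4 went the other way, with 7.90 to 9.51 on the 16 GNP arrays and 4.38 and 4.15 in the tumours, at least 14.3-fold lower. Of the Toll-like receptor pathway Irak1 was called higher (0.80 ± 0.11) and Nfkbia, the NF-kB inhibitor, lower (-1.35 ± 0.15), and the other 4 calls lay within background.

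Genes that ran most alike with Lgals3 and Lyz1, which stayed measurable in nearly all GNPs, were taken from 6910 genes with a mean at or above level 5 over the 16 GNP arrays. They are a description, since arrays share genotype. For Lgals3 they were Apoe (Pearson's r = 0.97), the co-chaperone gene Bag3 (0.96) and Pdlim4 (0.95), and after removal of the genotype means r was 0.91, 0.91 and 0.83. Lyz1 had no gene above 0.70, the nearest being Naprt, for which r was 0.81 after removal of the genotype means. Gpnmb and Cd83, whose mean over the GNP arrays was also above level 5, lay near background on most mutant arrays and are not given.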

How the data were processed

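RNA was hybridised to Illumina MouseWG-6 v2 arrays for 16 GNP samples and 2 tumours. The deposited values are log2 expression, made by the authors with background correction and quantile normalization by neqc in limma. The table held 45281 probes, and every array had the same median of 4.13, so a shift of all genes together would not be seen. A gene was named where the annotation gave its probe 1 symbol (34885 probes). No depth exists for arrays, and the number of arrays limits the precision.

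In limma 3.58.1 (R 4.3.3) the 16 GNP arrays were fitted with a mean for each genotype. The tumours were set against 8 GNP arrays (Ptch+/- and NdpKO;Ptch+/-), with genotype as covariate, and against WT in a fit of all 18 arrays that took the tumours as 1 group. Two-sided p-values were adjusted over all probes after Benjamini-Hochberg, and a call is one below 0.05. Labels do not tie arrays to animals, while the authors give 4 animals for each GNP genotype. P-values measure the spread between these samples. The fit was tested on simulated data. Same-numbered arrays of different groups did not deviate together (24 pairs, median correlation -0.04).

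Members, lists, alternatives and the naming rule (all members, and of each list the called genes with the largest differences) were chosen with earlier results of these data known. Other lists covered astrocyte, oligodendrocyte, endothelial, fibroblast and granule neuron markers. Motifs were searched on RefSeq promoter windows.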

Additional observations from a re-analysis of the deposited data

Results flagged for a closer look

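Lyz2 in WT replicate 4 read 5.45, while the other WT arrays read 4.31 to 4.49 at the same probe, so this array stood far from its group. Chance sets 1 array apart in this way in about 1 of 20 groups. The interaction of Norrin loss and the Ptch+/- background was called for Cd83 (2.43) and Tlr2 (1.91). Both genes lay near background in the single mutants, and the WT arrays in this contrast are those for which the genes were listed, so the values describe this floor, and both calls were lost with NdpKO;Ptch+/- replicate 2 counted as NdpKO.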

How the results depend on the processing

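Of 216 recomputed counts of called genes, 207 stayed within 1.5 times the reported one, and of 1489 recomputed differences of single genes 0 reversed with a call, 39 lost a call and 34 gained one. Calls of mutant GNPs against WT rest on the values that chose the genes, so a call that held is no support. At the second brightest probe of a gene 2 genes were called between tumours and GNPs. They were Lyz2 (4.99) and Ctsd, which has a single probe and lay within background. Gpnmb (1.09) and Lyz1 (0.0073) lost their calls there. At unadjusted p-values, 2 were called between NdpKO;Ptch+/- and NdpKO, 3 between NdpKO;Ptch+/- and Ptch+/-, and 5 in the interaction. The interaction gave 4 with a trended robust variance and 0 with NdpKO;Ptch+/- replicate 2 counted as NdpKO. Leaving out 1 array gave 2 to 4 called genes for Ptch+/- against WT, with 2 without WT replicate 1, Ptch+/- replicate 1 or Ptch+/- replicate 3, where Gpnmb (-1.69 to -1.78) and Lgals3 lost their calls. It gave 3 to 4 for NdpKO against WT, 3 to 3 for NdpKO;Ptch+/- against WT, 2 to 3 for the interaction, 3 to 5 for tumours against GNPs and 4 to 6 for tumours against WT. Lgals3 in NdpKO against WT was called without NdpKO replicate 4 (-2.88). With the replicate number as a block, 3, 3 and 2 genes were called for Ptch+/-, NdpKO and NdpKO;Ptch+/- against WT, and Gpnmb (-1.95 in Ptch+/-, -2.78 in NdpKO;Ptch+/-) lost its calls; of 16 arrays 4 correlated best with their own number. A limit on the mean at level 5 gives no value for Ctsd and for other dim genes. Values near background carry no order, and 2 tumours limit every tumour comparison.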
